A study of Caenorhabditis elegans with 2 samples.

Results

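The DNA letters that HSF-1 can recognise occur far more often than HSF-1 was found on them, and the elements described here are the simplest setting in which to see that. They are the perfect heat shock elements of the Caenorhabditis elegans nuclear genome that stand alone in a promoter. Each is 13 bp long and holds 3 units, GAA or its reverse complement TTC, in alternating orientation with 2 bases between them, on either strand. An element was isolated when no other element started within 100 bp of its start, and in a promoter when its centre lay between 1000 bp upstream and 200 bp downstream of an annotated start of a protein-coding transcript. Of 16904 perfect elements, 6441 were isolated, and 1608 of these lay in a promoter. An element was called bound when its interval lay within 100 bp of a peak of the pooled list of both replicates. By that measure 99 were bound and 1509 were not.

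HSF-1 is a transcription factor, conserved from yeast to mammals, that drives the response to heat. It binds DNA as a trimer, with each subunit contacting a unit of the element, and neighbouring units are contacted from alternating sides of the helix. Its best known targets are genes of chaperones, which fold proteins, and in worms it is also required for development and a normal lifespan without heat shock.

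Chromatin immunoprecipitation with sequencing had been done on whole young adults of 63 h, synchronised by bleaching and starvation at the first larval stage. All worms were of strain RW12254, with the allele st12254[hsf-1::TY1::EGFP::3xFLAG] inserted by CRISPR at the hsf-1 locus on chromosome I, and the fusion was precipitated with an anti-GFP antibody after sonication. There were 2 biological replicates of 1 group, and the labels name no heat treatment. No control sample was analysed here and no contrast between conditions exists, so every comparison is between elements.

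The tagged protein comes from its own locus, but the whole animal mixes all tissues, and an element bound in few cells cannot be told apart from one bound weakly in many. The pooled list held 2935 peaks, replicate 1 had 1217 and replicate 2 had 1877. Signal is the peak caller's value for a peak, as deposited by the authors, and is not scaled between lists. The sources used here do not give the number of reads, so depth is unknown, and the 95% intervals (Wilson for a share, Newcombe for a difference) cover the counting of elements only. Elements under 1 peak are not independent: the 99 bound elements were assigned to 95 peaks, 4 of which lay within 100 bp of 2 elements each. Positions are 1-based on ce11.

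The 6 bound elements under the strongest peaks of chromosomes II to V and X are shown because their units are the same as those of unbound ones. Each is read 5′ to 3′ on the strand where the first unit is GAA, with the units in capitals. The elements lie at chrII:11545292-11545304 (dnj-13, minus strand), chrIII:8447012-8447024 (hsp-110, minus), chrIII:8447134-8447146 (rpn-3, plus), chrIV:17278815-17278827 (hsp-1, plus), chrIII:9617065-9617077 (hcp-3, plus) and chrIII:9054041-9054053 (R107.5, minus), and 20 bases are given on each side.
dnj-13: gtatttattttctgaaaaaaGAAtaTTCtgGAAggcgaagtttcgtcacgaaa
hsp-110: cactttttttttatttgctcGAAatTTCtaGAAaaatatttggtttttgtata
rpn-3: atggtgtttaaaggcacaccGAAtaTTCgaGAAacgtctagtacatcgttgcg
hsp-1: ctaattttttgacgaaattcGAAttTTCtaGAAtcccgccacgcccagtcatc
hcp-3: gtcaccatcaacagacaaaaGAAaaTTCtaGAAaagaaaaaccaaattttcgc
R107.5: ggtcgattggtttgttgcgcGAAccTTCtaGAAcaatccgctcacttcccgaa

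The 5 unbound elements below were picked by the letters around them. They lie within 300 bp upstream of a start and are among those with the most near-perfect units beside the element, on the same chromosomes. They lie at chrV:784435-784447 (srab-16, plus strand), chrII:670359-670371 (sri-46, minus), chrII:4493717-4493729 (camt-1, minus), chrII:9001968-9001980 (F44G4.6, minus) and chrII:11431785-11431797 (C05D12.4, minus, shown with 8 bases on each side because it lies in a UTR).
srab-16: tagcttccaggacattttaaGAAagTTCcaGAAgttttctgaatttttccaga
sri-46: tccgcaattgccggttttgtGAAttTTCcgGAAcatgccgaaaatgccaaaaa
camt-1: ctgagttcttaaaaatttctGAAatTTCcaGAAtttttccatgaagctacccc
F44G4.6: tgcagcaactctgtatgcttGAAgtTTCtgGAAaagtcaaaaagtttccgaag
C05D12.4: aaatgcaaGAAatTTCgaGAAaaatttgg

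Most isolated promoter elements had no HSF-1 peak, but they lay near a peak more often than promoter sequence in general. The bound share was 6.16% (5.08 to 7.44), against 2.35% of all bases in promoter windows. A control with the same 3 units but gaps of 1 and 3 bases gave 2.51% (1.96 to 3.19, 63 of 2513 isolated matches). These matches were isolated from one another only, and those near perfect elements were not removed. Isolated elements outside promoter windows gave 2.01% (97 of 4833). The share of bases outside promoter windows was not computed, so this value has no background of its own. The replicate lists gave lower shares over lower backgrounds. Replicate 1 had 66 bound elements, 4.10%, against 1.09% of window bases, and replicate 2 had 79, 4.91%, against 1.41%. A peak stood within 100 bp in both replicate lists at 59 elements, all 59 bound in the pooled list. Of the bound elements 22 were in neither replicate's list, and 9 unbound elements were in at least 1 of them.

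The unbound elements lay near unthresholded peaks about as often as all window bases did. The ranked list of the pooled analysis holds 97869 candidate peaks before the reproducibility threshold, and 45.0% of all window bases lie within 100 bp of one. That share includes bases near a thresholded peak, which the unbound elements by definition are not. Of the unbound elements 680, or 45.1%, lay within 100 bp of a candidate peak. Their candidate peaks had a median signal of 28.3 (2.14 to 84.7), while the bound elements' pooled peaks had a median of 187 (60.0 to 6173). An irreproducible discovery rate of 0.05 or less was reached at 28 unbound elements and 0.01 or less at 0. Elements were called unbound by the list after the reproducibility threshold, so their lower signals and these rates largely follow from the definition. A pooled summit elsewhere in a window of one of their genes occurred for 90 unbound elements, 5.96%. Counted by gene, 98 of 1541 genes with an unbound element had a summit in a window, 6.36%, against 7.66% of all protein-coding gene names. By definition no summit lies within 100 bp of an unbound element, which can lower the shares for unbound elements and their genes.

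The bound elements lay closer to the start of the gene. The nearest annotated start was a median of 207 bp downstream of the 86 bound elements that lay upstream of it, and 494 bp for 1226 such unbound elements. Among the bound, 55.6% lay within 300 bp upstream of the nearest start, against 25.1% of the unbound, a difference of 30.4 percentage points (20.4 to 40.1). The share bound was highest between 100 and 200 bp upstream, at 16.9% (11.6 to 23.9), and its interval overlaps those of both neighbouring bins. It was 10.9% in the last 100 bp before the start and 10.3% between 200 and 300 bp. It was 2.43% (1.48 to 3.97) beyond 500 bp and 4.39% (2.58 to 7.37) from the start to 200 bp downstream.

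**Figure D1:**
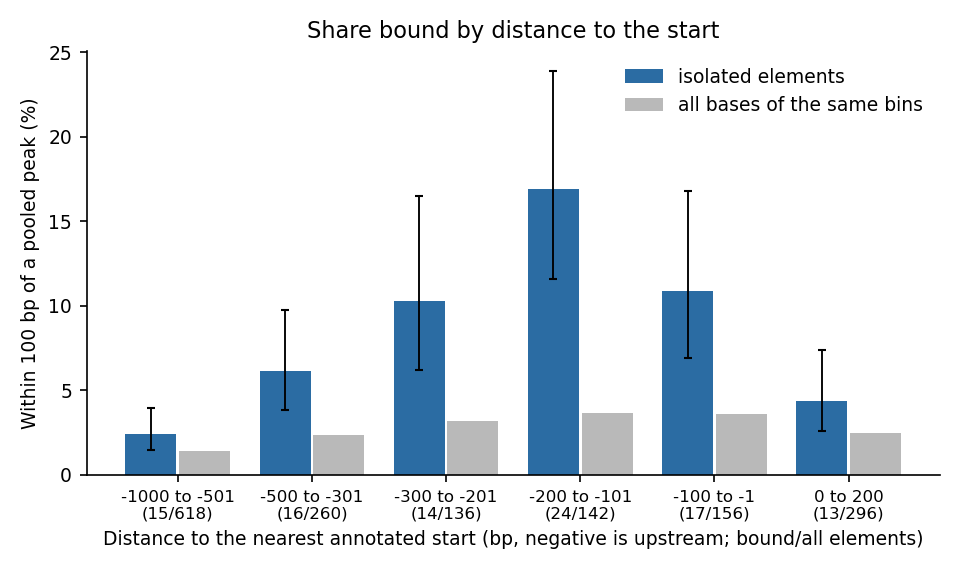
Share of isolated promoter elements within 100 bp of a pooled peak (vertical axis, percent) by distance to the nearest annotated start (horizontal axis, bp). Blue bars are elements with 95% Wilson intervals and grey bars all bases of the same bins; the element share reaches 16.9% between 100 and 200 bp upstream, where the base share is 3.66%.

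HSF-1 peaks as a whole also lie near starts, so the same bins were read on all bases. Within 300 bp upstream, 3.50% of bases were near a peak, against 12.7% (9.87 to 16.1) of 434 elements. Elsewhere in the windows these values were 1.91% and 3.75% (2.80 to 4.99, 1174 elements). The changed-spacing control had 3.63% (2.43 to 5.39) and 2.13% (1.57 to 2.88). The elements therefore exceeded both backgrounds by more near the start than far from it. Starts on both strands went with a higher share of elements and of all bases alike. Of 156 elements in windows of genes on both strands 26 were bound, 16.7% (11.6 to 23.3), against 5.03% (4.02 to 6.27) of 1452 with starts on a single strand, while the bases gave 6.06% and 1.98%. Annotated starts of trans-spliced worm genes need not be where transcription begins, so these distances are to the annotation.

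The strongest bound elements show the same arrangement gene by gene. Of the 20 with the highest pooled signal, 16 lay within 300 bp upstream, 17 were intergenic and 3 were in introns. All 20 were in both replicate lists, and 18 had a higher signal in replicate 2. The first 4 concern chaperones and the proteasome. The element of dnj-13, an HSP40 co-chaperone, lay 403 bp upstream in an intron, with a signal of 2754 in replicate 1, 3408 in replicate 2 and 6173 in the pooled list.

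The next peak is shared. Between hsp-110, an HSP70 nucleotide exchange factor, and rpn-3, a subunit of the proteasome's regulatory particle, which are read in opposite directions, 2 isolated elements lay under 1 peak with a signal of 1992 in replicate 1, 2720 in replicate 2 and 4697 pooled. The summit was 18 bp from the element nearer rpn-3 and 140 bp from the one nearer hsp-110. The stretch from 1 element to the other, chrIII:8446997-8447161 on the plus strand with the units of both in capitals, shows how they are placed.
hsp-110 to rpn-3: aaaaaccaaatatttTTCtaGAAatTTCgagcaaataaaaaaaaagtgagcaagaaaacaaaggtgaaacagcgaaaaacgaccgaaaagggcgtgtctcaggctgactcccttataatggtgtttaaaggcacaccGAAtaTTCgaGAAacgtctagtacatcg

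The promoter of hsp-1, the constitutive cytosolic HSP70, held 2 isolated elements with different outcomes. The one 138 bp upstream had a signal of 2076 in replicate 1, 2161 in replicate 2 and 4387 pooled, with the summit 250 bp away, the farthest of all bound elements. The one 897 bp upstream was 148 bp from that same peak and unbound, with candidate signals of 15.0 in replicate 1 and 46.5 in replicate 2. In both replicates the near element's signal was far above that of the distant one. This restates the calls, since the pooled list that defined them was made from both replicates. A like contrast was seen at uba-1, the ubiquitin-activating enzyme. Its element 167 bp upstream had 310 in replicate 1, 426 in replicate 2 and 748 pooled. The one 845 bp upstream was unbound in the pooled list and had 26.5 and 32.1, though it was in replicate 1's own list.

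Genes outside the chaperone and proteasome lists were also among the 20 strongest. The element of hcp-3, the centromeric histone H3 variant, lay 601 bp upstream and had 1862 in replicate 1, 2327 in replicate 2 and 4181 pooled. That of klp-7, a microtubule-depolymerising kinesin, lay 894 bp upstream in an intron and had 820, 1251 and 2066 in the same order. These 2 elements are among the 4 of the 20 that lay outside the last 300 bp, and klp-7's is the farthest upstream of all bound elements. Near hrde-1, a nuclear Argonaute of inherited silencing that shares its element with C16C10.13, the values were 582, 888 and 1462. At csr-1, a germline Argonaute, they were 297, 424 and 728. At mip-2, a protein of germ granules, they were 261, 417 and 672, and at egg-5, which acts in the passage from oocyte to embryo, 333, 552 and 833. Replicate 2 was the higher at each of these 6.

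The remaining chaperone genes among the strongest were dnj-12, bag-1 and the mitochondrial chaperonin pair. The element of dnj-12, another HSP40, was 39 bp upstream with 939 in replicate 1, 1086 in replicate 2 and 1996 pooled. That of bag-1, an HSP70 co-chaperone, was 109 bp upstream with 430, 627 and 1066. A single element served hsp-60, the mitochondrial chaperonin, and Y22D7AL.10, the co-chaperonin beside it, with 1297, 1255 and 2560. That last is 1 of the 2 whose signal was lower in replicate 2, the other being F19B2.5 with 419 and 402. The other strongest elements, at R107.5, bath-36 and cyn-7, cyp-31A3 and memi-1, F01G4.4 and skih-2, mbf-1 and nse-4, and uba-1, had pooled signals from 748 to 3070.

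The replicates ordered the bound elements alike. A candidate peak was present in both ranked lists for 94 of the 99. Across these, log2 values correlated with r = 0.976 (Pearson) and rho = 0.935 (Spearman), a description over elements that share peaks and libraries. Bound elements were called from a list thresholded on reproducibility between these replicates, so the agreement in part follows from the definition. The median was 86.6 in replicate 1 (19.4 to 2754, n = 97 elements) and 110 in replicate 2 (32.7 to 3408, n = 96). Replicate 2 was the higher at 77 elements, which cannot be read as more binding since the lists are not scaled to each other.

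**Figure D2:**
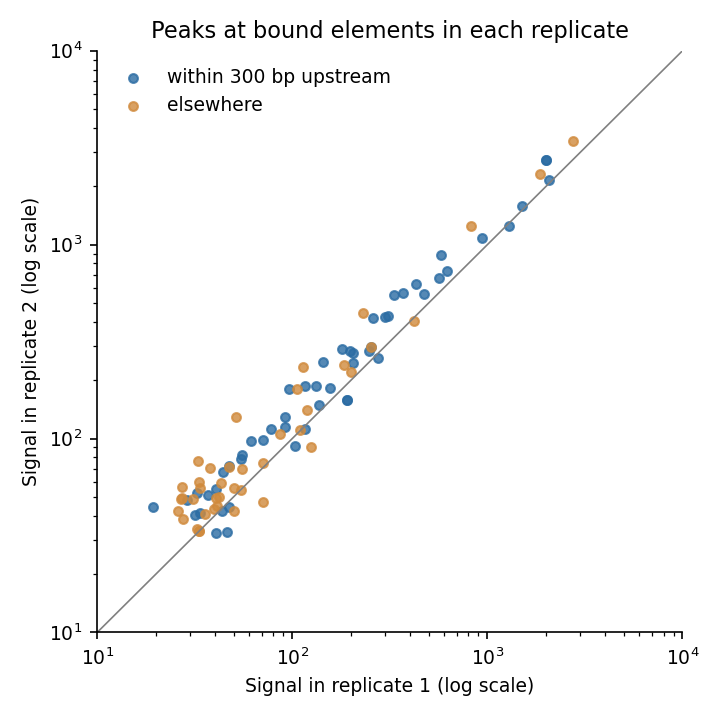
Signal of the peak at each of the 94 bound elements found in both ranked lists, replicate 1 (horizontal) against replicate 2 (vertical), both on log scales, coloured by position. The grey line marks equal values; most points lie just above it, and the 2 positions mix along its length.

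A nearby summit was more frequent in the stronger part of the bound elements than in the weaker part, but not at all of the very strongest. The distance from the element's centre to the pooled summit had a median of 42.0 bp (3.00 to 250), and 88 bound elements were overlapped by their peak. Peak intervals differed in width, and a wider interval allows a summit farther from the element. Width was not taken into account. A summit stood within 50 bp of 35 of the 49 elements with the stronger signal and of 23 of the 50 with the weaker, 71.4% and 46.0%, a difference of 25.4 points (6.03 to 42.3). This difference did not extend to the top of the ranking. The summit lay more than 100 bp from the elements of dnj-13, the strongest, hsp-110 and hsp-1. It lay 18 bp from that of rpn-3, 42 bp from that of hcp-3 and 13 bp from that of R107.5. The peak interval reached 11 elements only within the 100 bp allowed. The bound elements farthest from their peak were those of W04C9.4 (80 bp), rps-22 (76 bp), enol-1 and pas-1 (74 bp each) and sms-3 (67 bp). The unbound elements nearest to one were those of F56F11.4 (108 bp), T19H12.2 (109 bp), pik-1 (112 bp), fbxa-47 (117 bp) and sti-1 (137 bp). Of these, T19H12.2 was in replicate 1's list with a signal of 123 there.

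**Figure D3:**
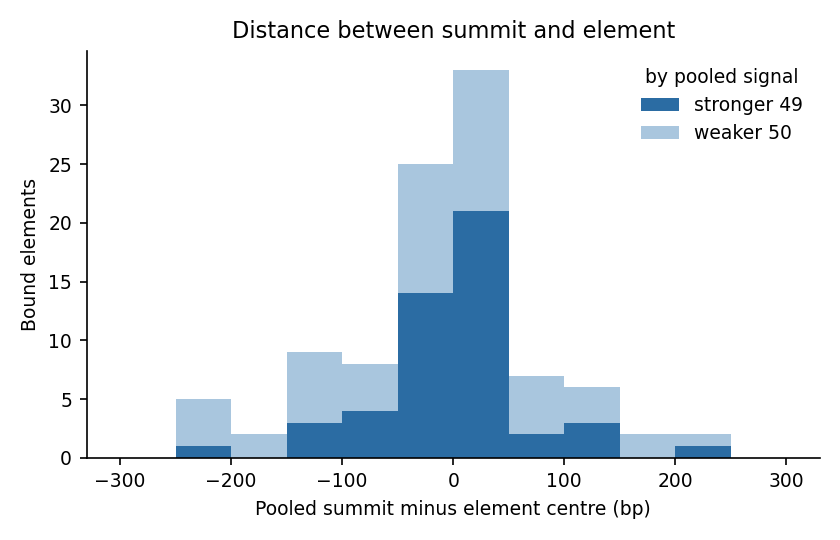
Position of the pooled summit relative to the centre of each of the 99 bound elements (horizontal axis, bp), as the number of elements per 50 bp (vertical axis). Dark bars are the 49 elements of higher pooled signal and light bars the other 50; the dark bars crowd within 50 bp of the centre.

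The 5 weakest bound elements were in neither replicate's own list. At cpn-4, a calponin-like gene, the signal was 25.9 in replicate 1, 42.5 in replicate 2 and 60.0 pooled. At enol-1, the glycolytic enolase, it was 26.8, 49.0 and 60.6, and at atg-3, an autophagy conjugation enzyme, 19.4, 44.5 and 68.0. The remaining 2 of the 5 weakest, at Y73B6BL.29 and srp-8, had pooled signals of 66.0 and 68.7.

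Of the isolated elements of protein quality control genes, 52.9% (36.7 to 68.5) were bound. The 7 lists for heat-inducible proteins, cytosolic chaperones, chaperonin and prefoldin, mitochondrial quality, folding in the endoplasmic reticulum, the proteasome and the ubiquitin pathway named 131 annotated genes, 30 of which had an element, against 1656 of all 19973 protein-coding genes. Their windows held 34 elements, 18 of them bound, against 81 of 1574 other elements, 5.15% (4.16 to 6.35). Such genes made up 18.2% of bound and 1.06% of unbound elements, a difference of 17.1 points (10.7 to 25.9). Their windows are rich in peaks without regard to elements: 17.0% of their bases lay within 100 bp of one, against 2.24% of other window bases. Within 300 bp upstream 14 of 19 such elements were bound, against 28.5% of bases. The lists were joined into 1 class with earlier results of these data known.

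Cytosolic chaperone genes had 7 of 10 elements bound. Besides those already given, the element of hip-1, an HSP70-interacting co-chaperone, lay 5 bp downstream of the start and had 184 in replicate 1, 239 in replicate 2 and 414 pooled. The 3 unbound were the distant one of hsp-1, that of sti-1, which links HSP70 and HSP90, and that of pph-5, a phosphatase that acts with HSP90. The element of sti-1 had no candidate peak within 100 bp in any of the lists, but lay 137 bp from a pooled peak. That of pph-5, 2 bp into the transcript of its neighbour Y39B6A.3, had a candidate of 18.6 in replicate 1 and none in replicate 2.

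Heat-inducible genes had 3 of 7 elements bound, and the other 4 lie in duplicated DNA. The element of hsp-70, a heat-inducible HSP70, lay 67 bp upstream and had 137 in replicate 1, 148 in replicate 2 and 279 pooled. The pair between hsp-16.2 and its divergent neighbour hsp-16.41, which encode small heat shock proteins, was assigned 1 peak with 191, 159 and 359. That peak covers the element nearer hsp-16.41 and begins 36 bp from the one nearer hsp-16.2. The pair lies in chrV:1805000-1805196, shown on the plus strand with the units in capitals.
hsp-16.2 to hsp-16.41: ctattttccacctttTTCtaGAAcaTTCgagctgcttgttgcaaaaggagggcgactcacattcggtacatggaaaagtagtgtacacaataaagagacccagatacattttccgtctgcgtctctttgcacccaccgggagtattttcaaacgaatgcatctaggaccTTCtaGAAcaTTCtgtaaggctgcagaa
The 4 unbound elements are those of hsp-16.1 and hsp-16.48, names that the annotation gives to 2 copies each of an inverted duplication on chromosome V. No candidate peak lay within 100 bp of any of them in the pooled or replicate ranked lists. All 50-base words (100%) around each of the 4 occur more than once in the genome, and whether reads could be placed there is not known from these files, so a missing peak does not show that HSF-1 was absent. Of all 1608 elements 48 had at least 50% of such words repeated, and 1 of these was bound. Without repeated elements the quality control share was 18 of 30.

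In the other quality control lists, the bound elements lay from 359 bp upstream (ubc-9) to 120 bp downstream (pbs-5) of the nearest start. The unbound ones lay 670 to 900 bp upstream, or from 5 bp upstream of the start to 187 bp downstream. The proteasome list had 4 of 7 bound: the hsp-110 and rpn-3 pair, pbs-5 with 55.4 in replicate 1, 69.4 in replicate 2 and 131 pooled, and pas-1, a core subunit, with 33.5 in replicate 1, no candidate in replicate 2 and 76.7 pooled. Unbound were pbs-4 at 900 bp and pas-5 at 709 bp upstream, and that of rpn-1, 187 bp into its neighbour ribo-1. The ubiquitin list had 3 of 5, with 2 elements of ubc-9, the SUMO-conjugating enzyme, under 1 peak of 252, 296 and 547. The mitochondrial list had 2 of 4, hsp-60 and hsp-6, the mitochondrial HSP70, whose element had 156, 183 and 345. The endoplasmic reticulum list had 1 of 2, at pek-1, the kinase of its stress response, with 96.4, 181 and 274. The single chaperonin and prefoldin element, 670 bp upstream of pfd-5, was unbound with a candidate of 3.27 in replicate 2 and none in replicate 1.

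Large gene families that sense chemicals or vary among nematodes had few bound elements, but the interval of each includes the 6.16% of all elements. Chemoreceptor genes had 2 of 100 elements bound, 2.00% (0.550 to 7.0), and F-box genes 1 of 18, 5.56% (0.988 to 25.8). Nuclear hormone receptor genes had 0 of 27, which allows a share of up to 12.5%. C-type lectin genes had 0 of 11, which allows up to 25.9%, and collagen and cuticle genes 0 of 8, up to 32.4%. Ribosomal protein genes had 2 of 4 bound, at rps-22 and rps-26. Autophagy genes had 1 of 6, at atg-3, and the list of HSF-1 regulators and lifespan genes 1 of 8, at hsb-1, whose product binds HSF-1. That element, shared with let-99, had 276 in replicate 1, 261 in replicate 2 and 529 pooled. Genes of cytochrome P450 and conjugating enzymes had 3 of 19.

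Near-perfect units beside the element did not set bound elements apart under the definition first taken. A unit was near-perfect when 2 or 3 of its 3 letters matched at the next position of the alternating 5-base grid. Of bound elements 40.4% had at least 1 adjacent such unit, against 40.8% of unbound ones, a difference of −0.351 points (−9.82 to 9.80), an interval that leaves room for differences of nearly 10 points either way. The bound share was 6.19% with none, 5.56% with 1 and 9.28% (4.96 to 16.7) with 2. Over 4 positions, 2 on each side, elements with 4 near-perfect units had 2 of 22 bound and those with none 29 of 487. Within 300 bp upstream the bound shares were 12.7% with an adjacent unit and 12.6% without. An element with 1 mismatch within 100 bp accompanied 347 members, of which 4.61% were bound, against 6.58% of the rest.

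**Figure D4:**
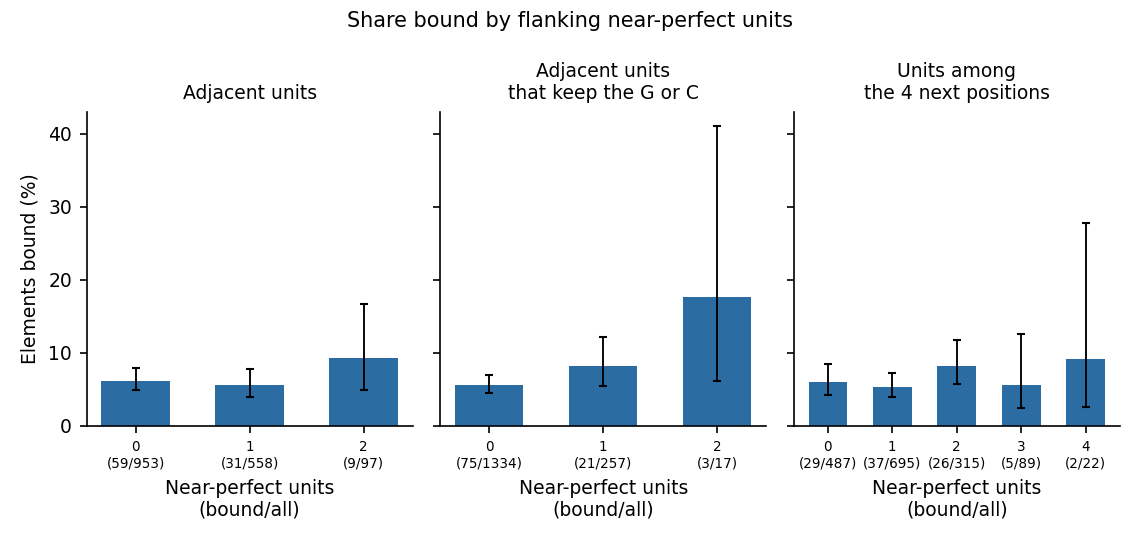
Share of isolated promoter elements bound (vertical axis, percent, with 95% Wilson intervals) by the number of near-perfect units adjacent to the element, adjacent and keeping the G or C, or among the 4 next positions. The intervals overlap throughout, and the widest belongs to the 17 elements with 2 units that keep the G or C.

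That result depends on the definition of a unit and on masked sequence. When the near-perfect unit had to keep its G, or C on the other strand, the difference was 7.68 points (0.0430 to 17.1), and the bound share was 5.62% with none, 8.17% with 1 and 17.6% (6.19 to 41.0) with 2 in only 17 elements. Among elements outside sequence that the reference masks as repetitive or of low complexity, it was 15.8 points (1.52 to 30.2). Masked elements made up 1036 of the 1608. Leaving out only the elements with at least 50% of their 50-base words repeated gave −0.223 points, and leaving out the commonest 13-base core gave −1.76. Single elements go both ways. Among the 20 strongest, 12 had no adjacent near-perfect unit, which is near the share over all members, 953 of 1608. The unbound element of srab-16, a chemoreceptor gene, had all 4 positions near-perfect. There the candidate signal was 21.7 in replicate 2 with none in replicate 1. The element of sri-46, also a chemoreceptor gene, had 35.5 in replicate 2 and none in replicate 1. At camt-1, a calmodulin-binding transcription activator, Y105E8A.21 and Y54E5A.8, no candidate was found in any list.

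The bases in and beside the gaps differed more. Read with GAA first, A stood before the first unit in 45.5% of bound and 28.0% of unbound elements, a difference of 17.5 points (7.75 to 27.5), and T in 19.2% and 39.1%. After the last unit A was found in 52.5% and 56.6% (−4.07 points, −14.1 to 5.81). At the second base of the gap before the last unit, T was present in 7.07% of bound and 26.0% of unbound elements and A in 53.5% and 38.4%. These are 6 positions with 24 comparisons, none adjusted for their number. In unmasked elements alone, the difference for A before the first unit was 12.3 points (−1.77 to 26.8).

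The 2 commonest pairs of bases in that gap, TT and TA, had different bound shares. Elements with TA there were bound in 26 of 192 cases, 13.5% (9.41 to 19.1), and those with TT in 2 of 204, 0.980% (0.269 to 3.50). The TT elements include 79 copies of the commonest core, and without it the share was 2 of 125, 1.60% (0.440 to 5.65). TA was thus present in 26.3% of bound and 11.0% of unbound elements, a difference of 15.3 points (7.42 to 24.8). TC had 13 of 107 bound, 12.1%. Rarer pairs lay farther apart, with GC in this gap at 5 of 33, 15.2% (6.65 to 30.9), and GT at 0 of 35. In the first gap CA had 8 of 46, 17.4% (9.09 to 30.7), and TT 6 of 228, 2.63% (1.21 to 5.62). TA and TT were picked out after the 32 values for both gaps had been seen. Isolated elements outside promoters, which did not enter those counts but share the peak list, gave 21 of 450 bound with TA, 4.67% (3.07 to 7.03), and 4 of 718 with TT, 0.557% (0.217 to 1.42). Of the 20 strongest elements 9 have TA. The sequences above hold it in 4 of the 6 strong elements and 0 of the 5 unbound ones, which were picked by another rule. All 7 heat-inducible elements have it, 4 of which lie in the duplicated copies. These elements are part of the promoter counts above and add nothing independent to them.

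The commonest core was bound at none of its isolated promoter copies. There were 223 distinct 13-base cores, and the commonest occurred in 79 members, of which 0 were bound. This allows a share of up to 4.64% (Wilson upper bound), a value that treats the copies as unrelated. The second core, with 42 members, had 8 bound. Of the 79, 78 were masked, 39 were intergenic and 35 in introns, and 10 had the same 33 bases around them, such as that near str-82, a chemoreceptor gene, at chrV:3973809-3973861 on the minus strand.
str-82: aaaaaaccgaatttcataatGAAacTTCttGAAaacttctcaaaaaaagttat
This core, which has TT in the second gap, was singled out after its count was seen.

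Base composition around the element moved with binding as well. The 100 bases on each side had a median GC of 38.0% at bound and 33.5% at unbound elements. The share bound was 0 of 107 where GC was under 25% and 1.82%, 4.22%, 9.78% and 11.4% in the successive classes up to 40% or more. All window bases gave 0.893%, 1.50%, 1.94%, 2.43% and 3.73% in the same classes. Within 300 bp upstream the share ran from 1.89% (0.519 to 6.62) under 30% to 31.0% (20.6 to 43.8, 18 of 58) at 40% or more, and elsewhere from 1.21% to 6.49%. Whether composition or position carries the other was not tested. Masked elements were bound in 5.02% and unmasked ones in 8.22% of cases. By place the shares were 7.75% in intergenic sequence, 8.11% in UTRs, 4.85% in introns and 2.63% in coding exons. By chromosome they ran from 2.72% on X (4 of 147) to 8.64% on III (21 of 243), with overlapping intervals. Orientation relative to the gene gave 5.66% with GAA first and 6.60% with TTC first.

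**Figure D5:**
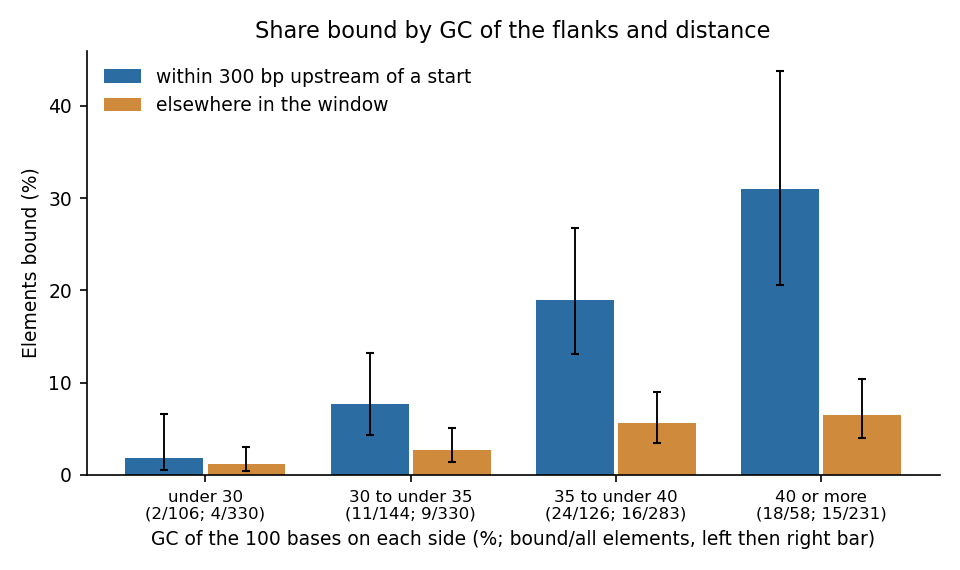
Share of isolated promoter elements bound (vertical axis, percent, with 95% Wilson intervals) by GC of the 100 bases on each side (horizontal axis, percent). Blue bars are elements within 300 bp upstream of a start and orange bars the rest; blue rises from 1.89% to 31.0% and orange from 1.21% to 6.49%.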

How the data were processed

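Peak lists on ce11, ranked and thresholded, were deposited by the authors for each replicate and for both together. Per the file listings, the joint lists were made from both replicates' alignments and a further parent whose type is not stated. The sources used here do not give the aligner or the peak caller. Signal is the peak caller's value per peak, and the ranked lists hold the −log10 of the irreproducible discovery rate, both as deposited by the authors. There were 16 columns of values of unnamed peak sets in the joint ranked tables that were not used.

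Elements were searched on both strands of the 6 nuclear chromosomes of the RefSeq genome, whose chromosome lengths match ce11, and placed with Ensembl release 115 (19973 protein-coding genes). Signals at an element are those of the strongest peak within 100 bp in each list. An element was masked with 7 or more soft-masked bases. Short RNA genes were tRNA, snRNA, snoRNA, rRNA and miRNA genes. Members, the 21 gene lists and the comparisons were chosen with earlier results of these data known. Named genes were those of the 20 strongest, 5 weakest and 5 nearest unbound elements, the first 3 chaperone lists and the 5 unbound elements with most near-perfect units (6 for sequences, 1 of which is not reported here); further quality control and family members were named after their values were seen. The shares computed numbered 83, not counting those by gap and flank bases, which were repeated in several sets of elements, and those by gene list. No test between conditions and no p-value was possible or made. Functions were tested on simulated data (Python 3.11.15, numpy 2.4.6, pandas 2.3.3, scipy 1.17.1).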

Additional observations from a re-analysis of the deposited data

How the results depend on the processing

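The alternatives were other peak distances, the summit in place of the interval, other lists, windows and isolation distances, masking, short RNA genes, other start, gene and unit definitions, and, chosen after the data were seen, leaving out the most frequent core, leaving out repeated sequence, using elements outside promoters, and every setting for the base comparisons. The excess of bound elements within 300 bp upstream, in quality control genes and with TA in the second gap kept its direction, with an interval above 0, in all that were run. With single replicate lists these 3 ranged from 30.2 to 38.2, from 20.4 to 26.2 and from 16.0 to 18.1 points. For A before the first unit they gave 21.4 to 25.0 points, and unmasked elements gave 12.3 points, with an interval that includes 0.

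The share bound was 4.10% to 4.91% with single replicate lists, 4.54% by summit, 4.60% with the 1467 strongest peaks, 9.45% with windows of 500 bp upstream and 100 bp downstream, 4.78% with 2000 bp upstream, and 8.22% for unmasked elements. The difference in adjacent near-perfect units changed sign to 0.379 points by summit, 0.134 with the conservative list, 0.183 to 1.09 with single replicate lists, 1.21 with the strongest peaks, 3.11 with isolation of 50 bp, 0.413 without short RNA neighbours, 15.8 in unmasked elements and 7.68 when units keep the G. Of these only the last 2 have intervals above 0. The cause was not tested.

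No paired analysis was possible because there is 1 group. Depth is unknown, which limits what a missing peak shows.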
